A study of Mus musculus with 48 samples.

Results

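Mndal and Ifi203 are neighboring genes of the interferon-inducible p200 cluster of mouse chromosome 1. They were followed here with 6 relatives, Mnda, Ifi204, Ifi205, Ifi202b, Pyhin1 and Aim2, in RNA-seq of 2 mouse models of spinocerebellar ataxia type 1, a neurodegenerative disease caused by an expanded polyglutamine tract in ATXN1. The 8 genes were found by their symbols in the 8 deposited tables, which gave 63 of the 188697 rows that carry a symbol. The number is 63 and not 64 because 1 table lists Ifi203 and Mndal together in a joint row. The genes were selected on their FPKM in mutant and WT libraries of these tables and on the WT levels of both strains, so those differences are described here and were not tested.

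Knock-in (KI) mice were Atxn1 154Q/2Q on a C57BL/6J background and carried the expanded repeat in 1 allele of the mouse gene, under its own regulatory elements. Transgenic (Tg) mice were ATXN1-82Q on FVB/NJ and expressed the human gene in Purkinje cells from the Pcp2 promoter. Untreated males of each model and their wild-type (WT) littermate controls were sampled when 5 or 12 weeks old. The tissues were cerebellum and inferior olive, a medullary nucleus whose climbing fibers reach Purkinje cells. Each model, tissue and age has 3 mutant and 3 WT libraries from 3 males of each genotype, in a table of its own, for 48 libraries in all. The design asks how each mutant differs from the WT mice of its own strain, and because tables were normalized separately, levels in different tables are only set side by side. Strain and model cannot be told apart in such a reading, and whether cerebellum and olive libraries came from the same mice is not stated in the sources used here.

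Proteins of the p200 family carry a HIN domain, which binds DNA, and most also carry a pyrin domain, through which they assemble with partners. Many of their genes are switched on by interferons, the cytokines of antiviral defense, and in the brain they are best known from microglia and other myeloid cells. The cluster arose by repeated gene duplication, so its members resemble each other closely and their number and expression vary between mouse strains.

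The resemblance of Mndal and Ifi203 extends to the stretch before the gene start, shown here because these genes had the largest differences of the 8. RefSeq (GRCm38.p6) gives promoter sequences for 7 of the 8 genes. Of the 250 bases upstream of a start of Mndal and of Ifi203, both on the minus strand, 89.3% of the alignment columns were identical. Both genes have 2 promoter entries, and the other pairings were 47.0% to 48.7% identical. High identity also occurred elsewhere in the cluster, at 94.4% for Pyhin1 with Ifi214 and 85.0% for Mnda with Ifi207. Capitals mark a GAAA, any 2 bases and a further GAAA (GAAANN directly followed by GAAA), the paired core that interferon-regulatory factors and the interferon-activated complex ISGF3 are known to bind. The Mndal stretch lies at chr1:173880188-173880437 and the Ifi203 stretch at chr1:173942493-173942742.
Mndal: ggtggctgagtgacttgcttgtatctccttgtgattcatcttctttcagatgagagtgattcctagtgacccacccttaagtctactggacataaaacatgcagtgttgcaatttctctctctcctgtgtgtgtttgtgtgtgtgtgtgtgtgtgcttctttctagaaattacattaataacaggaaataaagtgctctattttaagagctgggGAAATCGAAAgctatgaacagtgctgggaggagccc
Ifi203: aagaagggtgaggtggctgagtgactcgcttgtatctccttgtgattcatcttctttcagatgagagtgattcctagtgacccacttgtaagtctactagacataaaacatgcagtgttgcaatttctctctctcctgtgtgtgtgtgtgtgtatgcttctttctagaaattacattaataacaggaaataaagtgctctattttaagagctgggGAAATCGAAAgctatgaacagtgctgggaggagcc

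The motif began 36 bases before the start of Mndal and 35 bases before that of Ifi203, with the same letters around it. Mnda, at chr1:173913064-173913093, and Ifi205, at chr1:174031870-174031899, also held the motif, shown with 10 bases on each side. Ifi206, at chr1:173491339-173491368, and Ifi207, at chr1:173741831-173741860, are cluster genes outside the 8 and are added to compare the bases around it. All 4 are on the minus strand.
Mnda: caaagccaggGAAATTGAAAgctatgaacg
Ifi205: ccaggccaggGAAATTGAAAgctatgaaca
Ifi206: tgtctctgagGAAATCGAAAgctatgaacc
Ifi207: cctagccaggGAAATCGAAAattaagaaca
Searched on both strands, this motif was in 5 of 9 entries of the 7 genes, since Mndal and Ifi203 have 2 entries each. It was in 2.98% of all 32851 promoters of the same length and in 31.9% of the 47 that matched the list of interferon-stimulated genes used below. The second Mndal entry held the letters on the opposite strand, the second Ifi203 entry did not hold them, and neither did Ifi202b, Pyhin1 or Aim2. TTCNNNGAA, the element that STAT dimers bind, was in 1 of the 9 entries, that of Ifi202b, and in 7.02% of all promoters. These matches are letters in a window and show no binding.

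Close relatives can take each other's reads. The reads were 75 bases long, and of the distinct 75-base words in the GENCODE M21 transcripts of Mndal, 3.5% also occur in Ifi203, while 1.9% of those of Ifi203 occur in Mndal. Mndal also shares 4.7% of its words with Mnda, 4.5% with Ifi205 and 2.0% with Ifi204. In all, 9.9% of its words occur in some other member. Sharing was wider for Mnda, with 40.6% of its words in Ifi205 and 23.0% in Ifi204, so the low values of these 3 genes are uncertain. Ifi202b, Pyhin1 and Aim2 shared none with the other members followed here. Cluster genes that were not followed, such as Ifi214, were left out of this comparison. The promoter stretch of Ifi214 was 94.4% identical to that of Pyhin1, and whether their transcripts share words was not tested. The gene models overlap too. GENCODE M21 gives Mndal at chr1:173849126-173942491, a span that overlaps Ifi203 (chr1:173920407-173942672) and holds the whole of Mnda (chr1:173896345-173913046, named Ifi211 there), all on the minus strand. Most tables place Mndal at chr1:173857220-173880187, apart from Ifi203, but the KI cerebellum tables merge their loci, with Mnda included. In 3 Tg tables the locus of Ifi203 is merged with that of Ifi202b. For the Tg olive at 12 weeks, this merged locus also holds Mndal and Mnda. The split of reads between Mndal and Ifi203 is therefore less certain than their sum.

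The KI cerebellum at 12 weeks had the largest difference. Mndal, named for its likeness to the myeloid nuclear antigen MNDA, stood at 1.27, 0.866 and 0.969 FPKM (fragments mapped to a gene, scaled to transcript length and library size) in the WT libraries and at 3.82, 4.05 and 4.09 FPKM in the KI libraries. The KI libraries lay close together and far above every WT library. The mean rose from 1.03 ± 0.210 (SD, n = 3) to 3.99 ± 0.146 FPKM, a ratio of 3.85, and the difference of log2(FPKM + 0.1) was 1.86 ± 0.15 (SE). Ifi203, a protein with the pyrin and HIN domains of the family, stood at 0.930, 0.726 and 0.784 FPKM in WT and at 1.99, 2.40 and 1.61 FPKM in KI. Its KI libraries were again all above the WT libraries, with a ratio of 2.46 and a log2 difference of 1.19 ± 0.18 (SE). The summed FPKM of both genes had a ratio of 3.24 and a log2 difference of 1.65 ± 0.14 (SE). Of the 8 member rows of this table, these were the 2 with all KI libraries above all WT libraries. Among all rows with a value above 0, 13.2% were so placed, and the genes were picked for this difference. In bulk tissue, more cells of a type and more RNA per cell cannot be told apart.

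**Figure D1:**
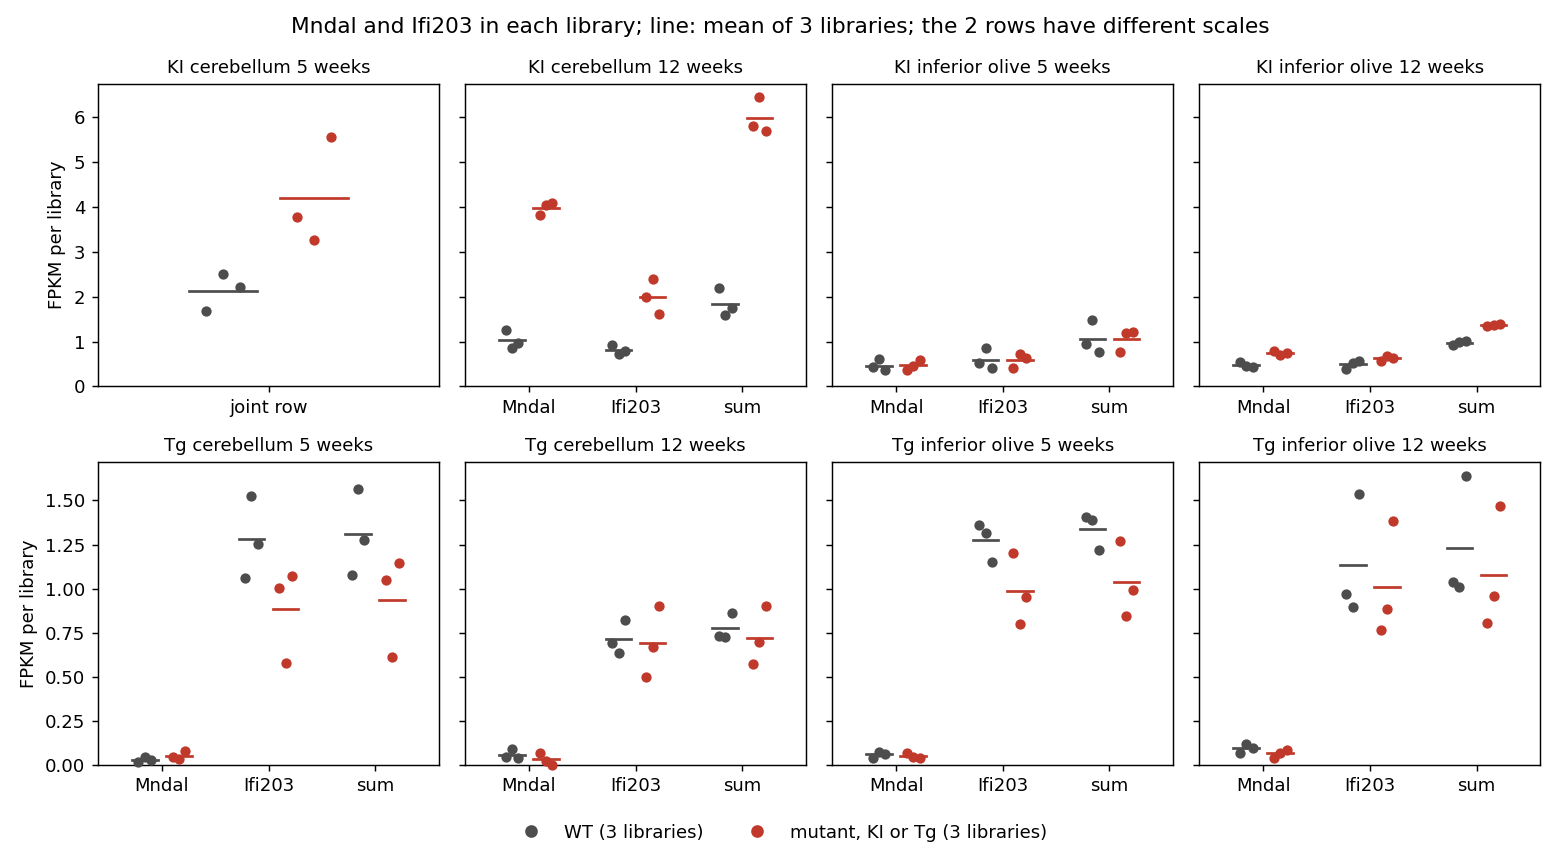
FPKM of Mndal, of Ifi203 and of their sum in each library (dots) of the 8 tables, with WT in grey, KI or Tg in red and lines at the mean of 3 libraries. The rows have different linear scales. In the KI cerebellum the red dots lie above the grey, at 5 weeks for the joint row, and in the Tg tables Mndal stays at or below 0.115 FPKM.

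At 5 weeks the KI cerebellum showed a smaller difference in the same direction, in the joint row of both genes. The WT libraries held 1.69, 2.51 and 2.21 FPKM and the KI libraries 3.78, 3.26 and 5.57 FPKM. The lowest KI library exceeded the highest WT library, and the KI libraries were spread more widely. The ratio was 1.97 and the log2 difference 0.93 ± 0.28 (SE), which the pair cannot be divided into. Of the 7 member rows of this table, 2 had all KI libraries above WT, beside 4.12% of all rows. The second was Ifi204, a cytosolic and nuclear DNA sensor related to human IFI16, with 0.126, 0.160 and 0.124 FPKM in WT and 0.199, 0.268 and 0.332 FPKM in KI.

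In the KI inferior olive the pair stood closer to WT. At 5 weeks neither gene of the pair was apart from WT. Mndal stood at 0.427, 0.612 and 0.362 FPKM in WT and at 0.360, 0.466 and 0.583 FPKM in KI, and Ifi203 at 0.523, 0.869 and 0.406 FPKM in WT and 0.408, 0.730 and 0.629 FPKM in KI. The log2 differences were 0.01 ± 0.25 (SE) and 0.00 ± 0.35 (SE), and 0 of the 8 rows had all KI libraries above WT, beside 5.6% of all rows. At 12 weeks Mndal stood at 0.544, 0.461 and 0.435 FPKM in WT and at 0.783, 0.704 and 0.752 FPKM in KI. All KI libraries were above WT, with a ratio of 1.55 and a log2 difference of 0.55 ± 0.09 (SE). Ifi203 overlapped, at 0.385, 0.529 and 0.571 FPKM in WT and 0.568, 0.678 and 0.632 FPKM in KI. The sum did not overlap, with a ratio of 1.41 and a log2 difference of 0.45 ± 0.03 (SE).

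Other members of the cluster, but not Aim2, had larger ratios than the pair in the KI olive at 12 weeks. Ifi204 stood at 0.176, 0.257 and 0.178 FPKM in WT and at 0.414, 0.523 and 0.390 FPKM in KI, a ratio of 2.17. Pyhin1, another pyrin and HIN protein, stood at 0.134, 0.0967 and 0.102 FPKM in WT and at 0.247, 0.286 and 0.197 FPKM in KI, with means of 0.111 and 0.243 FPKM. Neither gene overlapped between genotypes, and with Mndal they made 3 of 8 rows with all KI libraries above WT, beside 7.59% of all rows. All 8 member rows had a log2 difference above 0 in this table, with a median of 0.35, where the median of all genes tested was -0.01. Aim2 was barely above 0, at 0.03. Such rows were 7 of 8 in the KI cerebellum at 12 weeks and in the KI olive at 5 weeks. They were 5 of 7 in the KI cerebellum and 6 of 8 in the Tg cerebellum at 5 weeks, and 4 of 8 in each other Tg table. The FPKM of Mnda, Ifi204, Ifi205, Ifi202b and Pyhin1 summed to 0.382, 0.375 and 0.347 in WT and to 0.769, 1.01 and 0.669 in KI, a ratio of 2.22. Aim2 was left out of this sum. Its level was above that of each summed member, with means of 1.32 FPKM in WT and 1.33 FPKM in KI, a ratio of 1.01. The ratio of 2.22 therefore does not describe a sum that holds Aim2. In the KI cerebellum at 12 weeks the same sum overlapped between genotypes, at 0.338, 0.224 and 0.119 FPKM in WT and 0.393, 0.322 and 0.384 FPKM in KI, where the pair had its ratio of 3.24. This sum was also higher in all mutant than in all WT libraries in the KI cerebellum at 5 weeks (ratio 1.43), the KI olive at 5 weeks (1.33) and the Tg olive at 5 weeks (1.45), and it overlapped in the other Tg tables. Of all single rows, 4.12%, 5.6% and 5.73% were so placed. The members did not move alike. In the KI cerebellum at 5 weeks Ifi204 had means of 0.137 FPKM in WT and 0.267 FPKM in KI. In the Tg olive at 5 weeks Ifi202b went from 0.0971 to 0.217 FPKM, and Pyhin1 from 0.0367 down to 0.0167 FPKM. Whether these patterns differ between tissues or models was not tested.

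**Figure D2:**
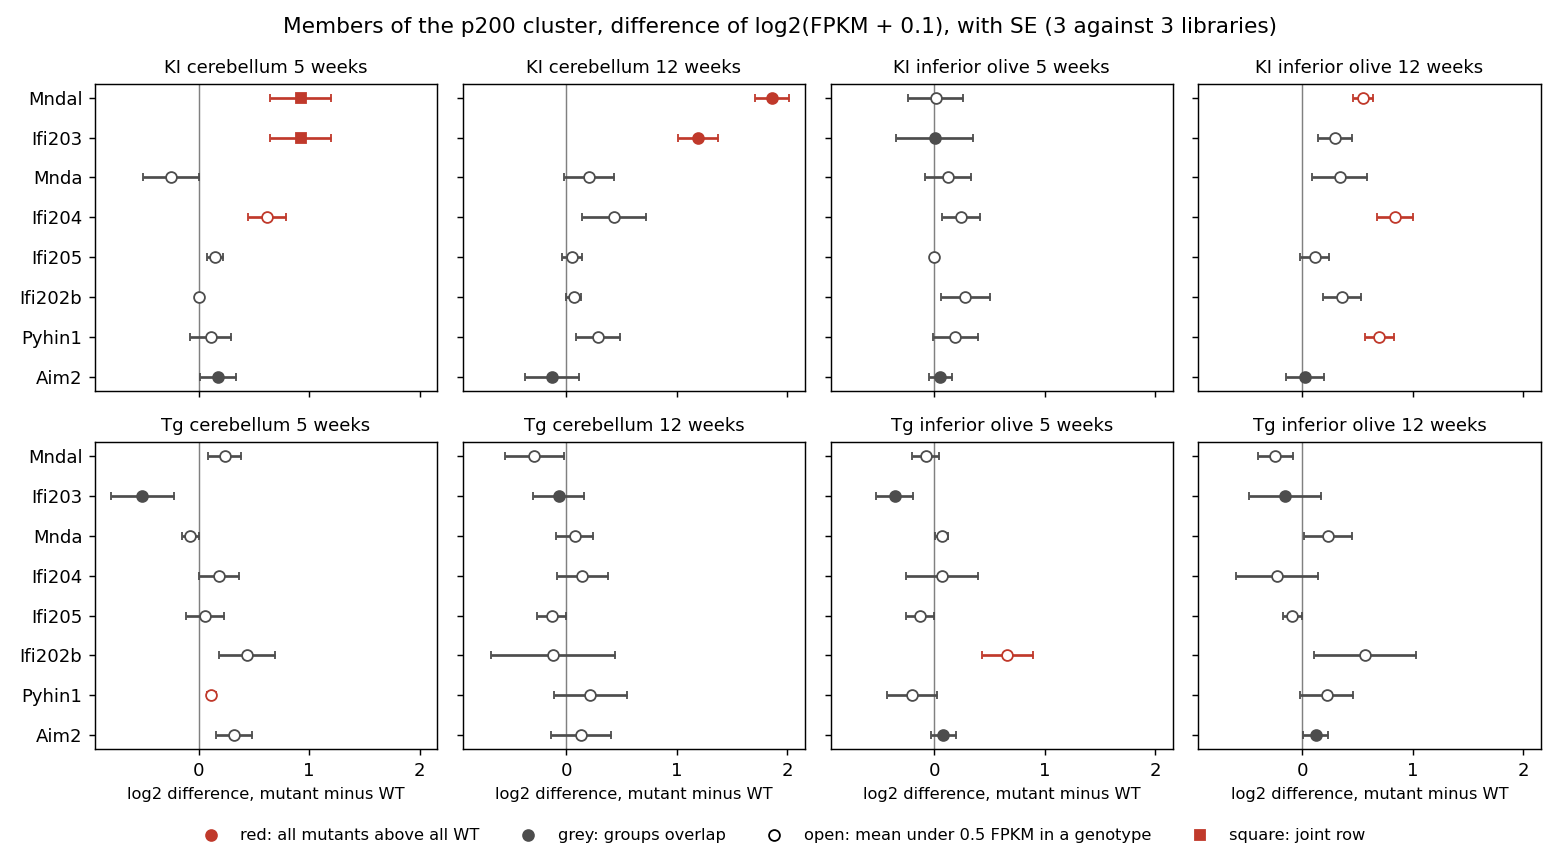
Difference of mean log2(FPKM + 0.1), mutant minus WT, for each member in each table, with its SE over 3 against 3 libraries. Red points have all mutant libraries above all WT libraries, open points had a mean under 0.5 FPKM in a genotype, and squares mark the joint row. The pair stands at 1.86 and 1.19 in the KI cerebellum at 12 weeks, and in the KI olive at 12 weeks Ifi204 reaches 0.84 and Pyhin1 0.70.

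Aim2, the sensor that binds cytosolic DNA and starts an inflammasome, did not separate by genotype in any of the 8 tables. Its WT means ran from 0.289 to 1.32 FPKM and its log2 differences from -0.13 to 0.32. In the KI cerebellum at 12 weeks it stood at 1.05, 0.552 and 0.711 FPKM in WT and at 0.717, 0.642 and 0.665 FPKM in KI, the KI libraries lying within the range of WT. Ifi205 was above 0 in 15 of the 48 libraries and Mnda in 37, with highest WT means of 0.0105 and 0.0682 FPKM, and neither separated in any table. A mean of 0.5 FPKM or more in WT and also in mutant libraries, the filter for testing, was reached by Ifi203 in 7 tables, by Aim2 in 6 and by Mndal in 2, with the joint row counted for both, and by the other 5 members in none. No member had all mutant libraries below all WT libraries in any table. Of all rows, 4.88% and 14.2% were so placed in the KI cerebellum at 5 and 12 weeks and 5.86% and 9.16% in the KI olive, against 10.1% and 13.3% in the Tg cerebellum and 5.22% and 3.92% in the Tg olive. Other family symbols in the tables, AI607873 (by position the Ifi207 named above), BC094916, Pydc3 and Pydc4, had means of at most 0.196 FPKM. Of these, Pydc3 had all KI libraries above WT in the KI cerebellum and the KI olive at 12 weeks, and AI607873 in the KI olive at 5 weeks.

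The Tg tables showed no such rise in the pair. Ifi203 was the main member there. In the Tg cerebellum at 5 weeks it stood at 1.06, 1.52 and 1.25 FPKM in WT and at 1.01, 0.580 and 1.07 FPKM in Tg. Its Tg mean was the lower one, at a log2 difference of -0.51 ± 0.28 (SE), but the libraries overlapped. In the Tg olive at 5 weeks it stood at 1.36, 1.32 and 1.15 FPKM in WT and at 1.20, 0.800 and 0.954 FPKM in Tg, a log2 difference of -0.36 ± 0.17 (SE), again with overlap. At 12 weeks the differences were -0.07 ± 0.23 (SE) in the cerebellum and -0.15 ± 0.32 (SE) in the olive. Member rows with all Tg libraries above WT were 1 of 8 in the cerebellum and 1 of 8 in the olive at 5 weeks, beside 7.06% and 5.73% of all rows. At 12 weeks there were 0 of 8 in each, beside 11.7% and 3.77% of all rows. The row in the olive was Ifi202b, a member without a pyrin domain that is known to hold Aim2 in check, at 0.117, 0.0786 and 0.0956 FPKM in WT and 0.133, 0.236 and 0.284 FPKM in Tg. The row in the cerebellum was Pyhin1, at 0.0140 to 0.0219 FPKM in WT and 0.0234 to 0.0324 FPKM in Tg.

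Mndal was close to 0 throughout the FVB/NJ tables. Over the 24 libraries of both genotypes it ranged from 0 to 0.115 FPKM, and it made up 0% to 12.5% of the summed FPKM of the pair in a library. In the C57BL/6J tables with separate rows its share was 39.0% to 71.7%. The share in the KI cerebellum at 12 weeks was 54.4% to 57.7% in WT and 62.8% to 71.7% in KI, without overlap, which is the larger ratio of Mndal on another scale. In the olive at both ages the shares of KI and WT overlapped. Among the Tg tables the shares did not overlap in the cerebellum at 5 weeks, at 1.5% to 2.7% in WT and 4.3% to 6.8% in Tg, where Mndal itself was at most 0.0779 FPKM.

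Set side by side, WT mice of the strains differed by member. At 12 weeks in the cerebellum, Mndal averaged 1.03 ± 0.210 FPKM (SD, n = 3) in C57BL/6J and 0.0576 ± 0.0291 FPKM in FVB/NJ. Ifi203 was 0.813 ± 0.105 and 0.716 ± 0.0947 FPKM, with overlap. In the olive the order of Ifi203 was the other way, with 0.495 ± 0.0976 FPKM in C57BL/6J and 1.13 ± 0.353 FPKM in FVB/NJ at 12 weeks, all FVB/NJ libraries being above. Ifi202b was listed at 0 in all 6 C57BL/6J WT libraries of the cerebellum and averaged 0.263 ± 0.135 FPKM in FVB/NJ at 12 weeks. Its FVB/NJ libraries were above those of C57BL/6J in each of the 4 pairs of tables. Aim2 went the other way in each of the 4, for example with 1.32 ± 0.282 FPKM in C57BL/6J and 0.640 ± 0.0728 FPKM in FVB/NJ in the olive at 12 weeks. The genome build is that of C57BL/6J, so reads of FVB/NJ that differ from it may be counted less well. The part of this in the strain values was not tested.

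**Figure D3:**
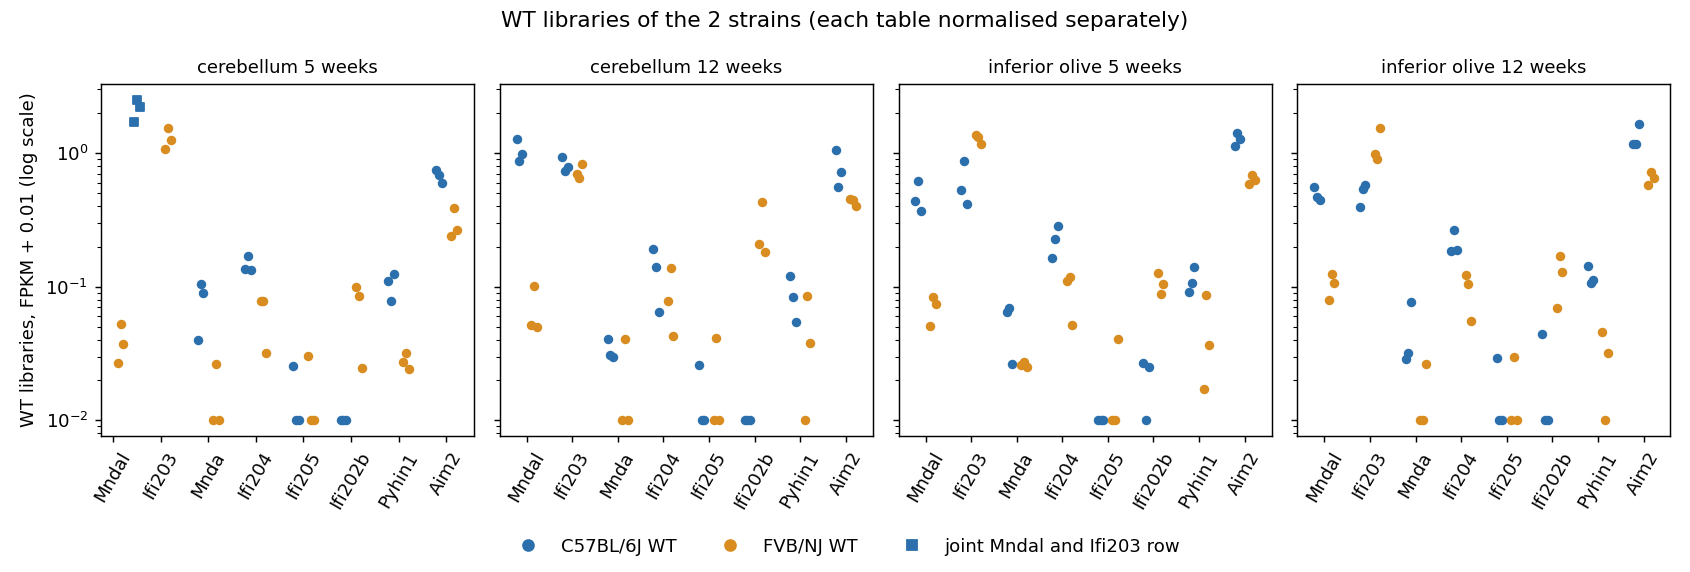
FPKM + 0.01 (log scale) of each member in each WT library, with C57BL/6J in blue and FVB/NJ in orange. Points at the lowest level are listed at 0, and squares show the joint row of Mndal and Ifi203. Mndal and Aim2 are higher in C57BL/6J and Ifi202b is higher in FVB/NJ in each panel where they have a row of their own.

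Interferon-stimulated genes rose in both KI tissues at 12 weeks, more of them in the olive, where the pair differed less. Whether the tissues differ was not tested. A list of 52 such genes was compared with WT by limma. In the KI olive at 12 weeks 17 of 45 tested genes rose at an adjusted p below 0.05 over all genes, none fell, and the median log2 difference was 0.43 against -0.01 for all genes tested. Of all genes, 0.264% rose. Irf7, a master regulator of interferon genes, rose from 1.49 ± 0.248 to 3.91 ± 0.431 FPKM (SD, n = 3, log2 difference 1.34 ± 0.13 SE, limma adjusted p = 0.00323). Usp18, a brake on interferon receptor signaling, rose from 0.767 ± 0.122 to 1.94 ± 0.365 FPKM (limma adjusted p = 0.0141). B2m, the light chain of MHC class I, rose from 127.0 ± 1.55 to 163.0 ± 8.86 FPKM (limma adjusted p = 0.00911). The count was 16 without KI replicate 3, 11 without WT replicate 1, 3 without WT replicate 2, 2 without WT replicate 3, 5 without KI replicate 1 and 8 without KI replicate 2.

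In the KI cerebellum at 12 weeks 6 of 45 genes of the list rose, among them Irf7, Usp18, Ifit1, Isg15 and Rsad2, and none fell. Of all genes, 2.0% rose. The median log2 difference of the list was 0.31, against 1.65 for the summed pair. Irf7 rose from 1.00 ± 0.275 to 2.27 ± 0.319 FPKM (log2 difference 1.12 ± 0.19 SE, limma adjusted p = 0.0195). Isg15, a ubiquitin-like modifier, rose from 2.21 ± 0.651 to 3.90 ± 0.111 FPKM (limma adjusted p = 0.0404). The count was 0 without any 1 of the 3 KI libraries, 1 without WT replicate 3 and 13 without WT replicate 1. At 5 weeks no gene of the list was called by limma in either KI tissue, where 0.0074% of all genes were called in the cerebellum and 0.0145% in the olive, none of them as higher (0.0%). The median was 0.23 over 45 genes in the cerebellum, with 6 at an unadjusted p below 0.05, and 0.29 over 47 genes in the olive, with 20. Of all genes tested, 493 of 13508 in the cerebellum and 827 of 13799 in the olive were below this p. The olive at 5 weeks had 46 of 47 listed genes above 0, where the median of all genes tested was -0.01, and a summed pair at 0.01 ± 0.32 (SE). Among the Tg tables, 1 gene of the list was called, Eif2ak2 in the cerebellum at 5 weeks, and the medians ran from 0.005 to 0.086. Of all genes, 0.423% rose in the Tg cerebellum at 5 weeks and 2.25% at 12 weeks, and 0.0% in the Tg olive at either age.

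**Figure D4:**
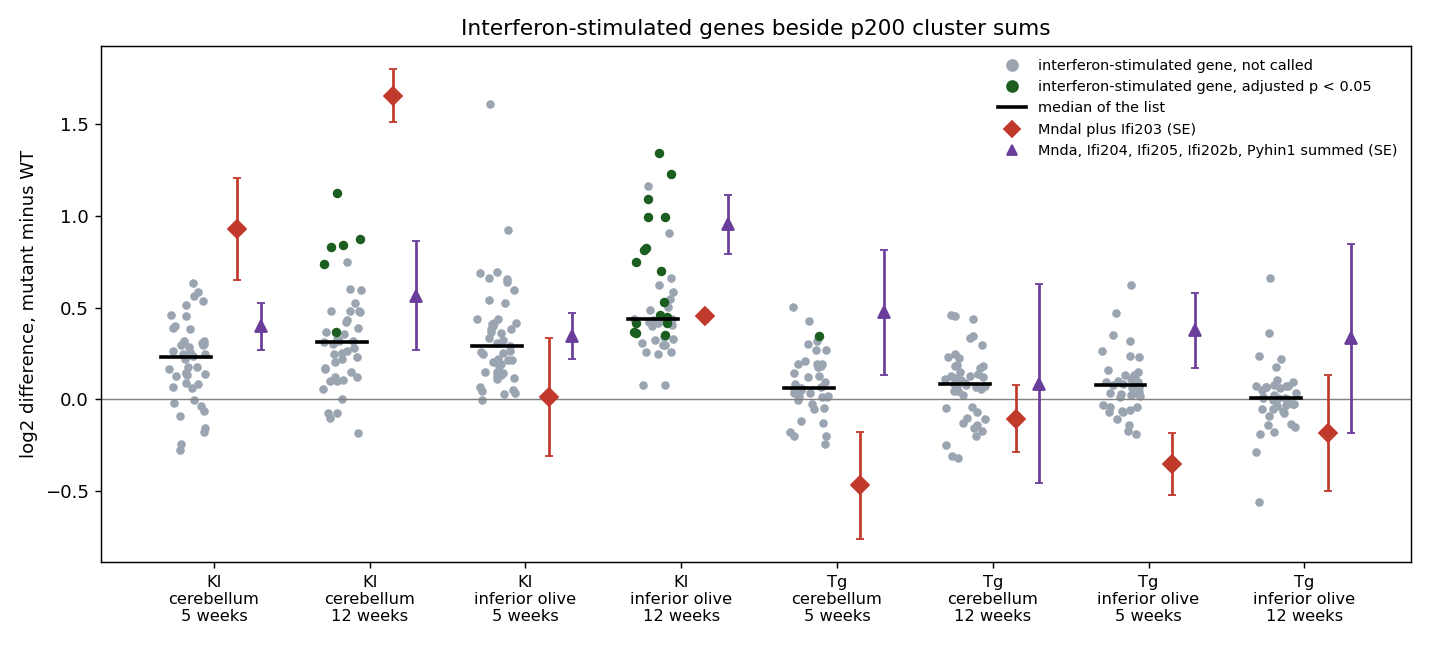
Log2 difference, mutant minus WT, of each tested interferon-stimulated gene (dots, green where called by limma, black line at the median), of the summed pair (red diamond, SE) and of the sum of 5 other members (violet triangle, SE). The pair stands at 1.65 in the KI cerebellum at 12 weeks, above every gene of the list, and at 0.45 in the KI olive at 12 weeks, near the list's median of 0.43.

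Receptors and DNA sensors upstream of these genes were counted in the same way. Of 12 genes of interferon receptor signaling, 1 rose in the KI cerebellum and 2 rose in the KI olive at 12 weeks, beside 2.0% and 0.264% of all genes. Those called are also in the list above, among them Irf9, which shares its row with Rnf31, in the olive. The medians were 0.04 and 0.05. In the Tg cerebellum at 12 weeks 1 of the 12 was called as lower, where 7.51% of all genes were called in either direction. Of 17 tested genes of DNA sensing and the inflammasome, 1 rose in the KI cerebellum at 12 weeks, Nfkb1, from 6.18 ± 0.260 to 7.37 ± 0.118 FPKM (limma adjusted p = 0.0492). Of 18 in the KI olive, 0 were called, and 0 had an unadjusted p below 0.05, beside 1855 of all 13990 genes tested. Pycard, the adaptor that links Aim2 to caspase-1, had log2 differences of -0.02 (limma adjusted p = 0.954) and 0.07 (limma adjusted p = 0.851) in these tables. In the Tg cerebellum Lrrfip1, a nucleic acid sensor, fell by 0.59 on the log2 scale at 5 weeks (limma adjusted p = 2.39e-05), where 4.1% of all genes were called in either direction. At 12 weeks, with 7.51% called, it fell by 0.65 (limma adjusted p = 0.00214).

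Genes on either side of the cluster were tested in the same fits. Of the 24 tested genes within 2 Mb in the KI cerebellum at 12 weeks, 1 was called by limma, as lower in KI. The median of the 24 was 0.02, and 5.58% of all genes were called. An unadjusted p below 0.05 was found for 7 of the 24 and for 3278 of all 13431 genes tested. The nearest tested rows, Ackr1 with Cadm3 on the low-coordinate side and Fmn2 on the other, had log2 differences of 0.19 (limma adjusted p = 0.238) and 0.04 (limma adjusted p = 0.610). In the KI olive at 12 weeks 1 of 29 was called, Kcnj10, a glial potassium channel, at -0.37 ± 0.05 SE (limma adjusted p = 0.00972), beside 1.49% of all genes. In the KI tables at 5 weeks 0 of 24 and 0 of 27 were called, with 3 and 4 at an unadjusted p below 0.05. Of all genes tested, 493 of 13508 in the cerebellum and 827 of 13799 in the olive were below it. In the Tg cerebellum 1 of 23 was called at 5 weeks, the row of Chml and Opn3, at -0.50 ± 0.09 SE (limma adjusted p = 0.0141). At 12 weeks 2 of 25 were called, Kcnj9 at -0.47 ± 0.07 SE (limma adjusted p = 0.00857) and the nearest row, Ackr1 with Cadm3, at -0.30 ± 0.07 SE (limma adjusted p = 0.0392). In the Tg olive 0 of 26 and 0 of 25 were called by limma, with 1 and 3 at an unadjusted p below 0.05. Of all genes tested there, 911 of 13875 at 5 weeks and 477 of 13887 at 12 weeks were below it.

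The genes whose levels followed the pair most closely across KI libraries were found by correlation. Over the 18 libraries of the 3 KI tables with separate rows, after each table's mean was removed, the genes most like Mndal of 12413 included Slitrk2 (Pearson's r = 0.937), Nalcn (0.925), Fstl5 (0.915) and Epha7 (0.911). For Ifi203 they were Slitrk2 (0.922), Angpt1 (0.906), Idh3a (0.905), Nfxl1 (0.891) and Baz2b (0.887). None of these 8 genes lies on chromosome 1, and none is in the interferon list. Mndal and Ifi203 had r = 0.885 with each other, and for their sum over all 24 KI libraries the first was Slitrk2 (0.905). The libraries share their genotype groups, and tissues may share mice, so these values largely repeat the difference between KI and WT and are given as a description.

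Slitrk2, a synaptic adhesion protein, shows the likeness on the measured scale, as a description, since it was picked for it. At 12 weeks in the KI cerebellum it stood at 5.88, 5.69 and 5.97 FPKM in WT and at 8.12, 8.09 and 8.36 FPKM in KI, without overlap. The log2 difference there was 0.48, against 0.01 at 5 weeks and 0.17 at 12 weeks in the KI olive.

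Microglial markers were not higher where the pair was highest. The 13 markers, taken in the KI cerebellum at 12 weeks, summed to 119 to 150.5 FPKM in WT and 112 to 116 FPKM in KI. None of the 13 had a log2 difference above 0, and their median was -0.17. All KI libraries were below WT for 4 of the 13, beside 14.2% of all rows. By limma 0 were called, and 4 had an unadjusted p below 0.05, beside 3278 of all 13431 genes tested. The 8 markers of monocytes and border macrophages summed to 8.75 to 13.8 FPKM in WT and 10.02 to 13.4 FPKM in KI, and the 8 of lymphocytes to 0.621 to 1.05 and 0.698 to 0.733 FPKM. In the KI olive at 12 weeks microglial markers summed to 209 to 219 FPKM in WT and 211 to 225 FPKM in KI. No marker of these lists was at 0 in all libraries of either table. In the Tg cerebellum, where the pair did not rise, limma called 6 of the 13 microglial markers as higher at 5 weeks. At 12 weeks it called 4 of the 13 as higher. Of all genes, 0.423% and 2.25% rose there.

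Tissue composition also varied between libraries. Purkinje cell markers summed to 1636 to 2537 FPKM in WT cerebellum and 51.4 to 66.5 FPKM in WT olive, and markers of the olive and medulla to 13.9 to 58.1 FPKM and 242.0 to 283 FPKM, so both tissue labels fit their markers. Purkinje markers of the KI cerebellum at 12 weeks were 1886 to 2287 FPKM in WT and 1660 to 1827 FPKM in KI, and markers of the olive and medulla were 25.1 to 58.1 FPKM in WT and 13.6 to 17.2 FPKM in KI. Granule cell markers were 686.0 to 1016 FPKM in WT and 1000.0 to 1028 FPKM in KI, and choroid plexus markers 444.5 to 1643 FPKM and 21.0 to 1737 FPKM. In the KI olive choroid plexus markers were 11.3 to 169 FPKM in WT and 27.6 to 1388 FPKM in KI at 5 weeks, and 877 to 4488 FPKM and 22.5 to 2686 FPKM at 12 weeks. Without any 1 library of the KI cerebellum at 12 weeks, the log2 difference of Mndal stayed between 1.76 and 2.01 and that of Ifi203 between 1.06 and 1.33. The part of cell composition in these differences, and in those of the interferon list, was not tested. Mouse Atxn1 was present in all libraries, at 5.56 to 12.6 FPKM. All KI libraries were above WT in the olive at 5 and 12 weeks (log2 differences 0.25 and 0.25). The same held in the KI cerebellum at 12 weeks (0.07) and the Tg cerebellum at 5 weeks (0.21), and the other tables overlapped. Whether reads of the human transgene enter this row was not tested.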

How the data were processed

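RNA was sequenced as 75 bp paired-end reads. Per the labels, the authors aligned reads to mm10 with TopHat2 2.1.0 and used Cufflinks 2.2.1. They deposited FPKM values per gene and library, normalized within each of 8 tables, with group averages, fold changes, p-values and q-values, and only the library values were used here. Counts were not used, so depth is unknown. In each table the deepest library held 1.18 to 1.95 times the fragments of the shallowest, as read from the lowest values, and 12439 to 13063 genes reached 1 FPKM. Rows without a symbol (9.16% to 13.06%) were left out.

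Mutants were compared with WT by limma 3.58.1 in R 4.3.3 on log2(FPKM + 0.1), leaving out genes whose WT or mutant mean was under 0.5 FPKM, with Benjamini-Hochberg adjustment over all genes and a call below 0.05. A fold on this scale understates the change of low genes. The fit was tested on simulated data. Members, lists and naming rules were chosen with earlier results of these data known. All 8 members were named, with called neighbors and the 5 genes most like each of the pair, except for a few genes not reported here. Likeness used 18 libraries and not 24, because the KI cerebellum at 5 weeks has only a joint row. Alternatives were other pseudocounts and filters, upper quartile rescaling, a replicate block and each library left out.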

Additional observations from a re-analysis of the deposited data

How the results depend on the processing

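The differences of the pair kept their direction in the KI cerebellum and in the KI olive at 12 weeks under every alternative run, and upper quartile rescaling moved none of the 15 values of the pair by more than 1 SD. A pseudocount of 1 FPKM gave log2 differences of 1.30 for Mndal and 0.72 for Ifi203 in the KI cerebellum at 12 weeks and 0.24 for Mndal in the KI olive at 12 weeks. For the low Mndal values of the Tg tables it gave 0.032 in the cerebellum at 5 weeks and -0.04 in the olive at 12 weeks, where a pseudocount of 0.01 FPKM gave 0.68 and -0.51, and -1.11 in the cerebellum at 12 weeks. With each library left out in turn, Mndal ranged from 0.49 to 0.63 and Ifi203 from 0.16 to 0.39 in the KI olive at 12 weeks, and the joint row from 0.71 to 1.09 in the KI cerebellum at 5 weeks.

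The number of genes called by limma over all genes moved more. It was 749 in the KI cerebellum at 12 weeks, with 100 to 1221 when a library was left out, and 209 in the KI olive at 12 weeks, with 37 to 163. At 5 weeks it was 1 in the KI cerebellum, with 0 to 1, and 2 in the KI olive, with 0 to 18. It was 1025 in the Tg cerebellum at 12 weeks, with 435 to 977. It was 0 in the Tg olive at 5 weeks, with 0 to 2 and 911 genes at an unadjusted p below 0.05, and 0 in the Tg olive at 12 weeks, with 0 to 1 and 477 genes. The 1 call in the KI cerebellum at 5 weeks became 0 with a filter on either genotype, with no filter and with upper quartile rescaling, and the Tg olive at 12 weeks had 1 call with no filter. In the Tg cerebellum at 12 weeks 307 genes rose and 718 fell, against 597 and 512 with upper quartile rescaling.

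The main fit did not pair libraries by replicate number, and no table had all 3 same-numbered pairs correlated over 0.1. All 3 were above 0 in the KI cerebellum at 5 weeks (0.353, 0.026 and 0.09). The same held in the Tg olive at 12 weeks (0.187, 0.081 and 0.166). Such a cutoff on 3 correlations cannot exclude pairing. With the replicate number as a block the calls were 288 in the KI cerebellum and 81 in the KI olive at 12 weeks, 7 in the KI olive at 5 weeks, and 3 and 4 in the Tg olive at 5 and 12 weeks. Alternatives for the interferon list and the summed pair were added after seeing the data. Genes of that list called in the KI cerebellum at 12 weeks were 3 with no filter, 3 with upper quartile rescaling, 2 with the block and 0 to 13 with a library left out. In the KI olive at 12 weeks they were 8 with the block and 2 to 16 with a library left out, and at 5 weeks 0 to 1. In the Tg cerebellum they were 0 with no filter and 0 to 1 with a library left out at 5 weeks, and 1 with upper quartile rescaling and 0 to 1 with a library left out at 12 weeks. The cause of these changes was not tested. The tables hold no counts, so no interval for counting error can be given, and how many fragments stand behind values near 0, such as those of Ifi205, Mnda and Ifi202b, is unknown.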
